A study of Mus musculus with 51 samples.

Results

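Gene expression in neuron regions and in supporting-cell regions of the mock-exposed mouse cochlea was compared across all genes listed, to describe what each region type looked like at baseline. The members were chosen by their labels alone: 16 mock neuron regions and 14 mock supporting-cell regions, 30 of the 51 regions of the series. Both groups came from CBA/CaJ male mice aged 16 weeks, without a transgene or a drug in the labels, placed through a mock exposure of 2 h that corresponds to the 100 dB SPL noise of the other arm. The titles add 4 h after exposure, whereas the study's design text describes collection directly afterwards, so the time of collection is not settled. Regions were captured by GeoMx digital spatial profiling, in which probes on a tissue section are released by light from a chosen region and counted by sequencing, on fresh-frozen sections of 6 µm. The design gives 5 mice per arm and the labels do not tie regions to mice, so several of the 16 and of the 14 regions shared a mouse. P-values that treat regions as independent are for that reason too small, which holds for all those below. How the regions were chosen, by a stain or by position, is not given in the sources used here.

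Spiral ganglion neurons carry sound information from the inner hair cells to the brainstem. Most of them are large bipolar cells with myelinated cell bodies and axons, rich in neurofilaments and in voltage-gated channels that allow fast and precisely timed firing. Around them lie satellite glia and myelinating Schwann cells, while the word supporting cell in the cochlea is often used for the epithelial cells that hold the hair cells in the organ of Corti. The fluid-filled ducts are bordered by fibrocytes of the spiral ligament and limbus, which secrete matrix proteins, and by the ion-transporting stria vascularis.

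A total of 6248 genes were listed besides 1 negative probe. The values are the authors' scaled signal, which has no unit: in each region the upper quartile is 3.12, and nearly every value is a whole multiple of the region's lowest one, which is the worth of 1 read. Read that way the neuron regions held 10147 to 58022 reads (median 23494) and the supporting-cell regions 9607 to 22926 (median 12885). The share of genes at the lowest value had a median of 31.3% and 51.6% in that order. The negative probe, a control with no target among mouse transcripts, averaged 1.09 ± 0.314 (SD, n = 16) in neuron regions and 1.54 ± 0.256 (n = 14) in supporting-cell regions on the scaled signal. In recovered reads the probe went the other way, averaging 1.44 ± 0.385 in neuron regions and 1.24 ± 0.156 in supporting-cell regions. The worth of 1 read averaged 0.843 ± 0.419 and 1.27 ± 0.319 in that order. A gene at 1 read thus had on average a higher scaled value in supporting-cell regions. Depth, share at the lowest value, worth of 1 read and background on the scaled signal moved with region type. Their part in the results was not tested.

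The neuron regions stood out by neurofilament, microtubule, membrane-excitability and some synaptic-release genes. The supporting-cell regions stood out by myelin, glial and some matrix genes. Of the 4686 genes tested, 929 (19.8%) passed an adjusted p of 0.05 in limma over regions. Higher in neuron regions were 627 (13.4%) and higher in supporting-cell regions 302 (6.44%). The split of calls was 67.5% neuron-higher; it became 93.7% with the negative probe subtracted, 90.4% with the mean level of the olfactory receptor genes fitted beside region type and 55.3% in edgeR on the recovered reads. In bulk regions, fewer cells of a type and less RNA per cell cannot be told apart. Differences below are on the log2(signal + 1) scale, neuron minus supporting, which understates the change of low genes, and are given with a standard error (SE) that limma drew from the spread common to genes of like mean.

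**Figure D1:**
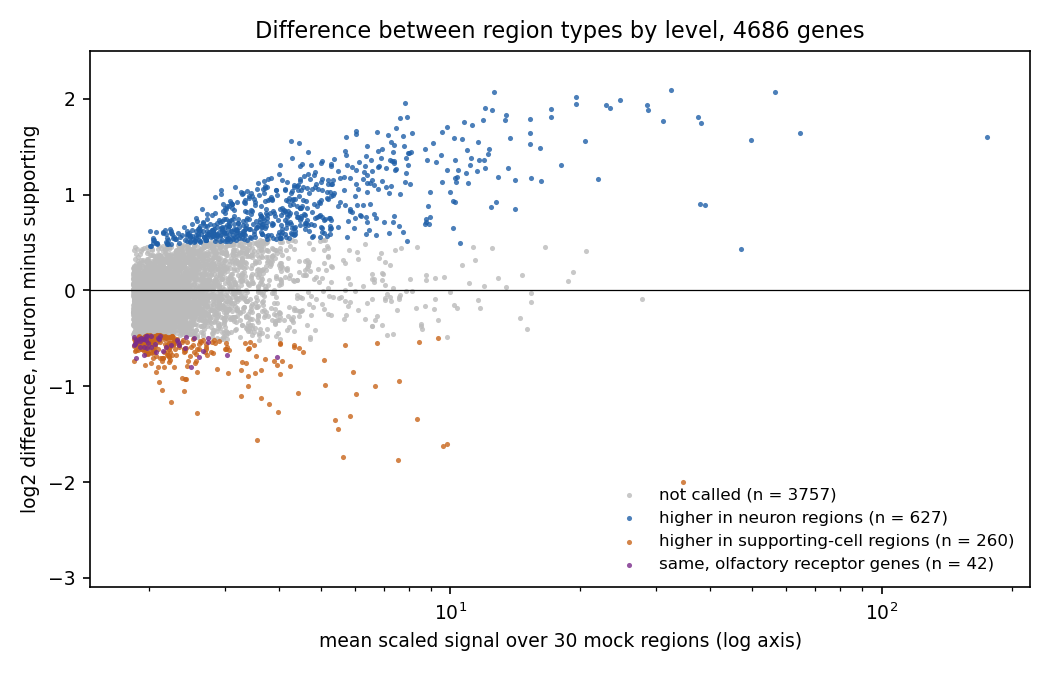
Difference between region types (log2, neuron minus supporting) against the mean scaled signal over the 30 mock regions (log axis) for the 4686 genes tested. Blue points are the 627 genes called higher in neuron regions, orange and purple points the 302 called higher in supporting-cell regions, 42 of them olfactory receptor genes in purple. Neuron-higher calls lie mostly among the better detected genes and supporting-higher calls reach down to the lowest levels.

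Calls in the 2 directions differed by level. The genes tested were divided into 4 equal bins by mean. Of 1172 genes in the bin with the highest mean, 500 were called higher in neuron regions and 58 higher in supporting-cell regions, with a median difference of 0.42. In the lowest bin, with means from 1.84 to 2.02 and so little above 1 read, the counts were 3 and 91 of 1172. Counts for the gene lists below are to be read against these levels as well as against all genes tested. The genes picked by size below all had a mean above 2.29, the middle level of those tested.

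Neurofilament subunits form the intermediate filaments that set the calibre of large axons. Nefl, the light subunit and the gene with the largest difference towards neuron regions among those tested, had a signal of 31.2 to 92.8 (median 48.6) in neuron regions and of 4.16 to 20.3 (median 9.88) in supporting-cell regions. No supporting-cell region reached the lowest neuron region. The difference was 2.10 (SE 0.16, limma adjusted p 6.30e-36, permutation p 2.00e-05), and this permutation p is the smallest that 100000 resamples can give. Nefm, the medium subunit, ranged over 21.8 to 62.4 (median 32.4) in neuron regions and 3.12 to 23.9 (median 9.36) in the others, where 1 neuron region lay within the supporting range, for a difference of 1.90 (limma adjusted p 7.34e-27). Nefh, the heavy subunit that matures with axonal growth, ranged over 28.1 to 66.0 (median 44.7) and 5.20 to 24.9 (median 13.9) in that order without overlap. The ratio of mean signal, neuron over supporting, was 4.40 for Nefl, 3.73 for Nefm and 3.40 for Nefh.

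Other genes of the pan-neuronal list followed, 12 of 13 tested members being called higher in neuron regions and 0 higher in supporting-cell regions, with a median difference of 1.61 against -0.04 over all genes tested. Thy1, a surface glycoprotein of projection neurons, was at 20.8 to 42.6 (median 29.1) against 4.16 to 12.5 (median 6.24), and Stmn3, a regulator of microtubule dynamics, at 18.7 to 58.5 (median 26.2) against 3.12 to 12.5 (median 6.55). Neither gene's 2 groups of regions overlapped, and the differences were 2.01 and 1.95 (limma adjusted p 3.81e-28 and 2.76e-26). Snap25, a membrane-fusion protein of synaptic vesicle release, was at 9.36 to 35.9 (median 23.3) in neuron regions and 1.56 to 13.5 (median 5.46) in supporting-cell regions. Its difference was 1.79 (limma adjusted p 1.39e-20), with 14 of 16 neuron regions above every supporting-cell region. Tubb3, the neuronal beta-tubulin, differed less, at 1.56 to 14.0 (median 6.50) and 1.04 to 6.24 (median 3.12). Here only 8 of 16 neuron regions lay above all supporting-cell regions. The difference was 0.98 (limma adjusted p 3.50e-05), a call lost when the olfactory receptor mean was fitted beside region type (adjusted p 0.0664). Mapt, which encodes the microtubule protein tau, was the 1 member not called, at medians of 1.93 and 2.29 (difference -0.05, adjusted p 0.871).

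**Figure D2:**
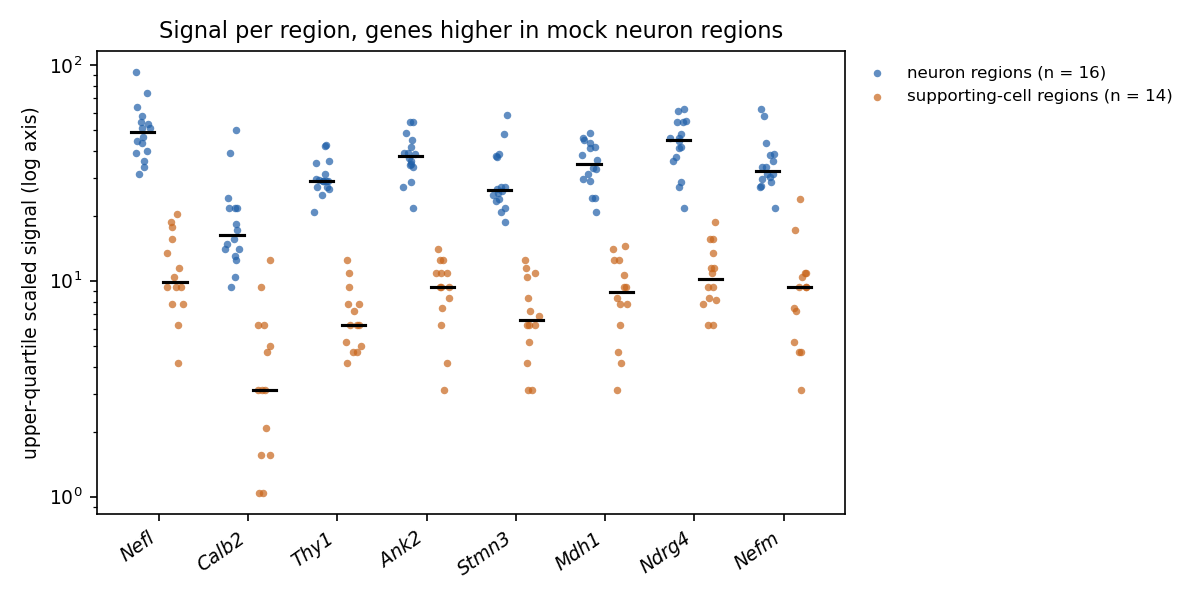
Scaled signal (log axis) of 8 genes among those with the largest difference towards neuron regions. Each point is 1 region, blue for the 16 neuron regions and orange for the 14 supporting-cell regions, and the black bar is the group's median. The 2 clouds are apart for most genes, while Calb2 and Nefm have 1 or more neuron regions within the supporting range.

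Markers of spiral ganglion subtypes divided into a few that were far higher in neuron regions and several near the floor. Calb2, the calcium-binding protein calretinin found in a subset of the myelinated neurons, was at 9.36 to 49.9 (median 16.4) in neuron regions and 1.04 to 12.5 (median 3.12) in supporting-cell regions. The highest supporting-cell regions overlapped the lower neuron regions, 13 of 16 of which lay above all of them, and the difference was 2.07 (SE 0.19, limma adjusted p 5.76e-25). Lypd1, a membrane-anchored modulator of nicotinic receptors used as a marker of another subset, was at 12.5 to 38.5 (median 22.2) and 1.56 to 22.9 (median 6.24). Slc17a7, the vesicular glutamate transporter of these neurons, was at 6.24 to 20.5 (median 14.3) and 1.56 to 10.9 (median 5.20). Their differences were 1.49 and 1.26 (limma adjusted p 1.57e-14 and 2.66e-09). Above all supporting-cell regions lay 7 of 16 neuron regions for Lypd1 and 12 for Slc17a7.

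Of the 12 subtype and identity genes tested, 5 were called higher in neuron regions and 0 higher in supporting-cell regions, with a median difference of 0.41. The other called members, the ephrin receptor Epha4 and the transcription factor Runx1, had differences of 0.60 and 0.52 at median signals of 2.86 and 3.12 in neuron regions, calls lost under 4 of 16 and 7 of 17 alternatives. The remaining 7, among them the neurotrophin receptors Ntrk2 and Ntrk3 and the transcription factor Prox1, were not called, and Ntrk3 lay close to the threshold (difference 0.47, adjusted p 0.0507). Pou4f1, a transcription factor of sensory neurons, was listed but fell below the filter on low values, with 11 of 16 neuron regions at 1 read.

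Ion channels and the ankyrins that anchor them in the axonal membrane were higher in neuron regions in 13 of 19 tested members of the excitability list, with a median difference of 0.96. Ank2, an adaptor between membrane proteins and the spectrin skeleton, was at 21.8 to 54.6 (median 37.7) against 3.12 to 14.0 (median 9.36), a difference of 1.99 without overlap (limma adjusted p 1.17e-29). Kcnab2, a cytoplasmic subunit of potassium channels, was at 12.5 to 37.4 (median 18.0) against 2.08 to 9.36 (median 4.68), with no overlap. Both genes separated the region types completely.

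Pore-forming channels gave a mixed picture. Kcnc1, a potassium channel of fast-firing neurons, had a difference of 1.36 (limma adjusted p 1.72e-10). Kcna2 was higher by 1.20 (adjusted p 2.05e-07), whereas Kcna1, its partner at the axon beside the node, was at medians of 3.12 and 4.42 and was not called (difference -0.23, adjusted p 0.469). Among sodium channels, Scn8a, Scn1a and the auxiliary Scn4b were higher in neuron regions by 0.88, 0.75 and 0.96, Scn2a and Scn3b were not called, and Scn9a was the 1 member higher in supporting-cell regions (-0.52, adjusted p 0.0253) at medians of 1.14 and 2.08. The Scn9a call was lost under 7 of 16 alternatives. Atp1b1, a subunit of the sodium pump that restores ion gradients after firing, was at 42.1 to 69.6 (median 54.6) against 4.68 to 28.1 (median 16.4) without overlap.

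Genes of synaptic vesicle release were higher in neuron regions in 8 of 16 tested members and higher in supporting-cell regions in 0, with a median of 0.62. This share was near the 500 of 1172 genes called towards neuron regions in the bin with the highest mean, where the median was 0.42. Sv2c, a vesicle glycoprotein, and Cplx1, a complexin that clamps fusion, were higher by 1.63 and 1.58 (limma adjusted p 6.27e-14 and 1.65e-14). The paralogues Sv2a and Sv2b were not called (differences 0.38 and 0.20), and the calcium sensor Syt2 was not either (0.42, adjusted p 0.125). Of the glutamate receptors, 3 were tested: Grin1, the obligatory NMDA receptor subunit, and Gria3, an AMPA receptor subunit, were higher in neuron regions by 1.01 and 0.55, and Grm7 was not called.

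Motors and tracks of axonal transport were called higher in neuron regions in 14 of 17 tested members and in 0 the other way, with a median of 1.09. Map1b, a microtubule-associated protein, was at 27.0 to 65.5 (median 42.2) against 6.24 to 18.7 (median 10.9), a difference of 1.89 without overlap. Kif5a and Kif5c, the neuronal heavy chains of kinesin-1, were higher by 1.48 and 1.81 (limma adjusted p 3.83e-12 and 2.22e-17). Kif5b, the widely expressed heavy chain, was at medians of 2.21 and 1.56 and was not called (difference 0.14, adjusted p 0.635). The light chain Klc1 and the vesicle motor Kif1a were higher by 1.65 and 1.47. Tuba1b, a tubulin of most cells, was higher by 0.89 (adjusted p 6.18e-08), a direction that turned under quantile normalization.

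Further genes picked for their size of difference lay outside these lists. Mdh1, the cytosolic malate dehydrogenase of the malate-aspartate shuttle, was at 20.8 to 48.3 (median 34.8) in neuron regions and 3.12 to 14.6 (median 8.84) in supporting-cell regions. Ndrg4, a cytoplasmic protein found mostly in neurons and heart, was at 21.8 to 62.4 (median 45.0) and 6.24 to 18.7 (median 10.1). Neither overlapped between region types, and the differences were 1.93 and 1.93 (limma adjusted p 1.44e-27 and 1.39e-29).

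Energy metabolism genes were called towards neuron regions in part. Of 74 tested subunits of the respiratory chain and ATP synthase, 34 (45.9%) were higher in neuron regions and 0 in supporting-cell regions, with a median of 0.48. In the bin of all genes with the highest mean, 500 of 1172 were called towards neuron regions, with a median of 0.42. The respiratory chain share was thus near that of well detected genes. Cox5b, a subunit of cytochrome c oxidase, was at 10.9 to 27.0 (median 15.3) against 1.56 to 12.5 (median 5.72), and Atp5a1, the alpha subunit of ATP synthase, at 15.6 to 36.6 (median 30.1) against 9.36 to 17.2 (median 12.5). Their differences were 1.54 and 1.16 (limma adjusted p 2.64e-14 and 1.79e-10), with 14 and 15 of 16 neuron regions above all supporting-cell regions. In glycolysis 9 of 15 tested genes were higher in neuron regions and 0 the other way (median 0.57), with Eno2, the neuronal enolase, and Pkm, pyruvate kinase, at 1.34 and 1.31, and Gapdh at 0.57 (adjusted p 0.0325).

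These counts were smaller with reads thinned and with the olfactory receptor mean in the fit. With reads thinned to the shallowest region, the calls towards neuron regions were 10 pan-neuronal, 12 axonal transport, 9 excitability, 6 synaptic release and 14 respiratory chain genes. With the olfactory receptor mean in the fit they were 9, 11, 7, 6 and 10. The glycolysis list had 3 calls after thinning and 2 with that mean in the fit, and the subtype list 3 and 3.

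On the other side, the myelin list held 10 called genes of 13 tested, all higher in supporting-cell regions, with a median difference of -0.92. The summed signal of its 14 listed genes was 27.0 to 62.4 (median 45.2) in neuron regions and 108 to 173 (median 134) in supporting-cell regions, without overlap. Pmp22, a compact myelin protein of Schwann cells, was at 0.891 to 9.36 (median 4.99) in neuron regions and 6.24 to 23.4 (median 15.1) in supporting-cell regions. In 13 of 14 supporting-cell regions it lay above every neuron region, and the difference was -1.60 (SE 0.19, limma adjusted p 1.65e-14, permutation p 2.00e-05). Mbp, myelin basic protein, was at 1.04 to 9.36 (median 3.34) and 4.16 to 15.6 (median 8.06), and Cnp, an enzyme of the cytoplasmic face of myelin, at 1.04 to 9.36 (median 3.64) and 4.99 to 28.1 (median 7.54). Both overlapped widely, with differences of -1.08 and -0.999 (limma adjusted p 2.55e-06 and 1.56e-05).

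Further myelin genes were higher in the same regions. Fa2h, which makes the hydroxylated fatty acids of myelin lipids, differed by -1.11, the tetraspanin Cd9 by -0.92, and Drp2 and Ncmap, membrane proteins of myelinating Schwann cells, by -0.74 and -0.74. Egr2, the transcription factor of Schwann cell myelination, differed by -0.52 at medians of 1.04 and 1.56 (adjusted p 0.0341), a call lost under 6 of 16 alternatives. Prx, Pou3f1 and Gldn were not called.

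**Figure D3:**
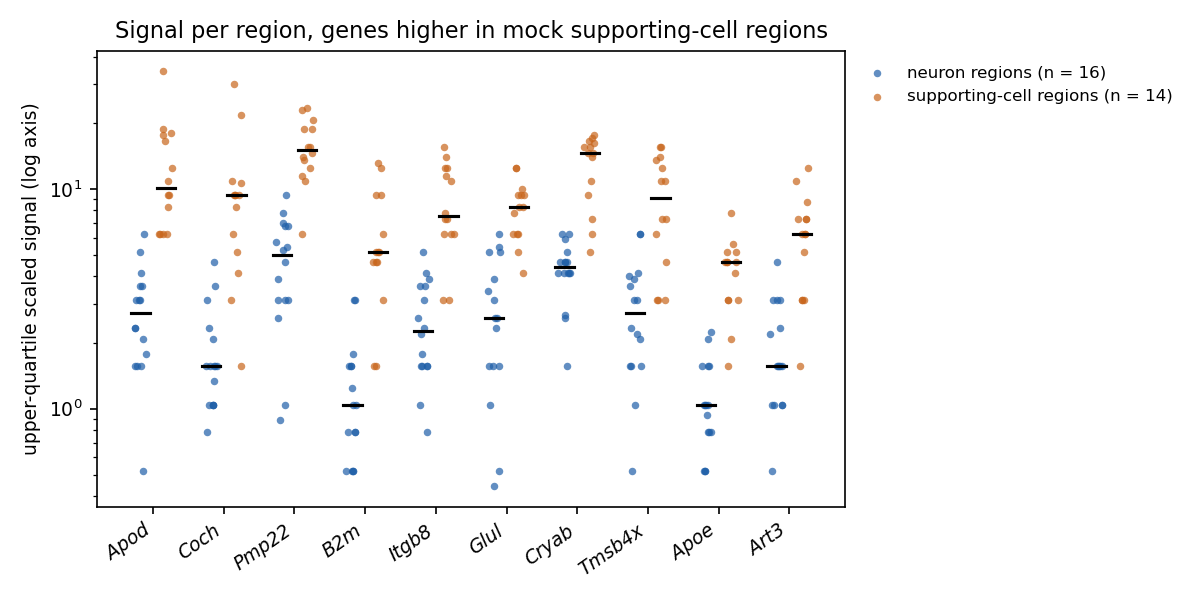
Scaled signal (log axis) of 10 genes among those with the largest difference towards supporting-cell regions. Each point is 1 region, blue for the 16 neuron regions and orange for the 14 supporting-cell regions, and the black bar is the group's median. The supporting-cell medians are higher for every gene drawn, with overlap at the edges, and many neuron regions lie near the worth of 1 read.

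Glial genes followed the myelin genes in part: 5 of 8 tested members were higher in supporting-cell regions, 0 in neuron regions, and the median difference was -0.78. Apod, a lipid-binding apolipoprotein of Schwann cells and fibroblasts, was at 0.520 to 6.24 (median 2.73) in neuron regions and 6.24 to 34.3 (median 10.1) in supporting-cell regions. The lowest supporting-cell region equalled the highest neuron region, and the difference of -1.77 (SE 0.20, limma adjusted p 2.97e-16) was the largest in this direction among the genes described. Glul, the glutamine synthetase of glia, was at 0.445 to 6.24 (median 2.60) and 4.16 to 12.5 (median 8.32), and Apoe, the lipid carrier made by glia and macrophages, at 0.520 to 2.23 (median 1.04) and 1.56 to 7.80 (median 4.68). Their differences were -1.35 and -1.28 (limma adjusted p 2.72e-09 and 4.36e-10). Sox10, the transcription factor that specifies glia of the neural crest, was at 0.520 to 3.12 (median 1.04) and 1.04 to 7.80 (median 3.12), a difference of -1.05 (adjusted p 2.68e-07). In 10 of 16 neuron regions Sox10 was at 1 read, against 3 of 14 supporting-cell regions. For Apoe these counts were 12 of 16 and 1 of 14. Scn7a, a sodium channel of Schwann cells, differed by -0.50, a call lost under 6 of 16 alternatives. S100b, Ngfr and Ncam1 were not called, at 0.11, 0.46 and 0.26.

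Matrix and fibrocyte genes were higher in supporting-cell regions in 5 of 8 tested members and in neuron regions in 1, with a median of -0.62. Summed over the 10 listed genes, Spp1 among them, signal was 35.9 to 59.25 (median 45.2) in neuron regions. In supporting-cell regions the sum was 34.3 to 67.6 (median 42.8), so the sums overlapped. Coch, cochlin of the spiral ligament and limbus, was at 0.780 to 4.68 (median 1.56) and 1.56 to 30.1 (median 9.36). In 11 of 14 supporting-cell regions it lay above every neuron region, while 1 supporting-cell region was at 1 read, and the difference was -1.74 (SE 0.21, limma adjusted p 6.90e-15). Otos, otospiralin of the same fibrocytes, was at 0.780 to 4.37 (median 2.41) and 1.04 to 13.5 (median 6.24) (-1.07, adjusted p 5.45e-06), and Sparc, Vim and Ogn differed by -0.79, -0.59 and -0.65. Spp1, the secreted phosphoprotein osteopontin, went the other way, at 18.7 to 42.1 (median 30.5) in neuron regions and 4.68 to 15.6 (median 9.88) in supporting-cell regions without overlap, a difference of 1.56 (adjusted p 8.94e-18).

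Also picked by size were Itgb8, an integrin beta subunit, B2m, the light chain of class I histocompatibility molecules, Cryab, a small heat-shock protein, Tmsb4x, the actin-binding thymosin beta 4, and Art3, an ADP-ribosyltransferase family member. Itgb8 was at 0.780 to 5.20 (median 2.26) and 3.12 to 15.6 (median 7.54), and B2m at 0.520 to 3.12 (median 1.04) and 1.56 to 13.1 (median 5.20), with B2m at 1 read in 11 of 16 neuron regions. Their differences were -1.45 and -1.56 (limma adjusted p 1.46e-10 and 3.09e-13). Cryab was at 1.56 to 6.24 (median 4.42) and 5.20 to 17.7 (median 14.6), with 12 of 14 supporting-cell regions above all neuron regions. Its difference was -1.34 (adjusted p 5.02e-10), a call lost when the olfactory receptor mean was fitted too (adjusted p 0.0898). Tmsb4x and Art3 differed by -1.31 and -1.27 (adjusted p 7.54e-09 and 2.04e-08).

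Genes of sterol and fatty acid synthesis, which supply membrane lipids, were higher in supporting-cell regions in 5 of 7 tested members and in neuron regions in 0 (median -0.62). Scd2, a desaturase, was at 1.56 to 11.4 (median 4.42) and 5.20 to 19.8 (median 10.7) (-0.95, limma adjusted p 3.10e-05), and Hmgcs1, an enzyme of the mevalonate route, at 0.520 to 3.12 (median 1.19) and 1.04 to 9.36 (median 3.12) (-0.92, adjusted p 1.00e-05). Fdft1 and Scd1 were called too, at -0.58 and -0.62.

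The supporting-higher counts were smaller too under these alternatives. With reads thinned, 7 myelin, 4 glial, 2 matrix and 2 lipid genes were called, and with the olfactory receptor mean in the fit 3, 3, 2 and 2. For the lists with 0 calls in a direction, limma at an unadjusted p of 0.05 would have added 1 glial gene towards neuron regions, and 1 hair cell and 1 respiratory chain gene towards supporting-cell regions. In those same lists and directions edgeR on recovered reads called 1 gene, of the hair cell list, and DESeq2 called 0. The olfactory receptor genes are used in the nasal epithelium and serve here as a measure of background on the scaled signal. Of 408 tested, 42 (10.3%) were called higher in supporting-cell regions and 0 in neuron regions, with a median difference of -0.23. The supporting-higher share was 6.44% over all genes tested. In the lowest bin by mean it was 91 of 1172 genes, with a median difference of -0.15. The mean log2 level of the olfactory receptor genes was 1.41 ± 0.113 (SD, n = 16) in neuron regions and 1.65 ± 0.0777 (n = 14) in supporting-cell regions. The part of background in single low genes was not tested.

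**Figure D4:**
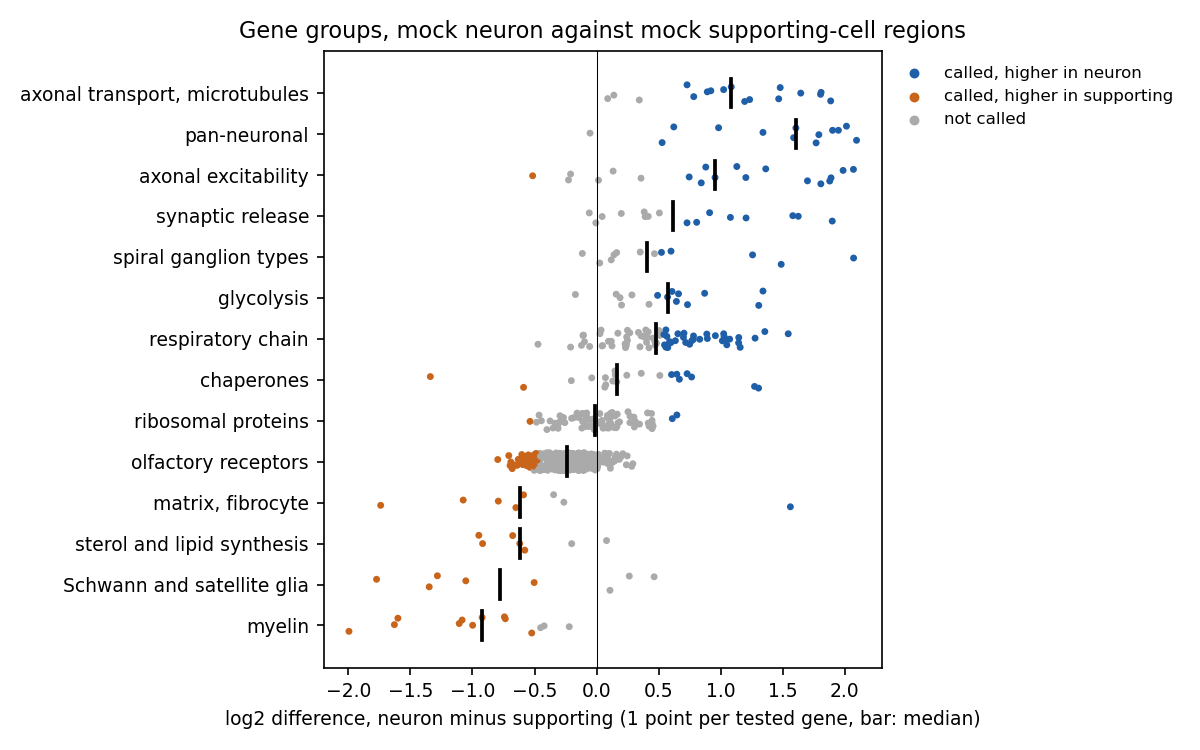
Difference between region types (log2, neuron minus supporting) for the tested members of 14 gene groups. Each point is 1 gene, blue where called higher in neuron regions, orange where called higher in supporting-cell regions and grey where not called, and the black bar is the group's median. Axonal transport and pan-neuronal genes lie to the right, with medians of 1.09 and 1.61, myelin and glial genes to the left, with -0.92 and -0.78, and ribosomal protein genes around 0.

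The labels were set against the markers. In every neuron region Nefl was at 31.2 or more and Snap25 and Calb2 were at 9.36 or more. Supporting-cell regions reached 20.3 for Nefl, 13.5 for Snap25 and 12.5 for Calb2. Nefl and Calb2 ranked 1 and 2 by size of difference in the same contrast, so they give no separate check of the labels. Tubb3, the neuronal beta tubulin, ranged over 1.56 to 14.0 (median 6.50) in neuron regions, with 1 region at 1 read, and 8 of 16 neuron regions lay above all supporting-cell regions. For organ of Corti supporting cells only 3 of 17 markers were listed. S100a1 and Hey2 were higher in supporting-cell regions by 0.62 and 0.49 (limma adjusted p 0.00944 and 0.0361) at medians of 3.12 and 2.08. Their calls were lost under 3 of 16 and 6 of 16 alternatives. Sox2, which marks organ of Corti supporting cells and also glia, fell below the filter, at 0.520 to 4.16 (median 1.56) in neuron regions and 1.04 to 3.12 (median 1.56) in supporting-cell regions. The Sox2 ranges overlapped throughout (permutation p 0.589), with 7 of 16 neuron and 10 of 14 supporting-cell regions at 1 read. Gjb2, a connexin of cochlear supporting cells, was not among the genes listed. With 3 of 17 markers listed, these values cannot settle whether organ of Corti supporting cells were in the supporting-cell regions. Genes of myelin, glia and fibrocytes were among the leading genes there, beside Itgb8, B2m, Cryab, Tmsb4x and Art3. The name supporting-cell region is kept only as the label's.

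The calls among markers of other cells are read against 19.8% of all genes tested. Of 4 hair cell genes tested, Pvalb and Cib2 were higher in neuron regions (1.13 and 0.66), Pvalb encoding a calcium-binding protein that spiral ganglion neurons also make. Slc26a5, the motor protein prestin of outer hair cells, was at medians of 1.40 and 1.56 and was not called. The 2 tested genes of the stria vascularis list were higher in supporting-cell regions: Slc12a2, an ion cotransporter also of fibrocytes, and Atp1b2, at -0.90 and -0.74. In the endothelial and pericyte list 1 of 4 (Rgs5, -0.52) and in the blood list 1 of 3 (Hba-a1, -0.63) were higher in supporting-cell regions. After thinning no gene of the organ of Corti, stria, endothelial or blood lists was called, and 1 of the hair cell list was. The 1 bone gene tested was not called, and both listed macrophage genes fell below the filter, with summed signals of 0.624 to 4.68 in neuron regions and 2.08 to 6.24 in supporting-cell regions.

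Chaperones, the proteins that refold other proteins and are the subject of the study's title, were mixed at baseline. Of 21 tested, 7 were higher in neuron regions and 2 in supporting-cell regions, with a median of 0.16. Hspa8, the constitutive Hsp70, was at 17.2 to 35.3 (median 23.0) in neuron regions and 3.12 to 18.7 (median 8.84) in supporting-cell regions, and Hsp90aa1, an Hsp90, at 10.9 to 30.1 (median 18.5) and 3.12 to 14.6 (median 8.58). Their differences were 1.31 and 1.27 (limma adjusted p 4.33e-12 and 1.79e-10). Hsp90ab1 and the co-chaperones Fkbp4 and Ahsa1 were higher in neuron regions by 0.77, 0.67 and 0.60. Hsf1, the transcription factor of the heat-shock response, was called higher in supporting-cell regions together with Cryab, at medians of 1.56 and 3.12 (-0.59, adjusted p 0.0104), and that call was lost under 4 of 16 alternatives. With thinned reads the chaperone calls were 4 and 1, and with the olfactory receptor mean in the fit 2 and 0.

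The calls of housekeeping groups are read against the same 13.4% and 6.44% of all genes tested. Of 81 tested ribosomal protein genes 2 (2.47%) were higher in neuron regions and 1 (1.23%) in supporting-cell regions, with a median of -0.01. Proteasome genes gave 3 and 1 of 43 (6.98% and 2.33%, median -0.05). Rab GTPases, which direct vesicle traffic, gave 5 and 1 of 29 (17.2% and 3.45%, median -0.11). These 3 medians changed sign under some scalings, among them subtraction of the negative probe, so no direction is given for them. Among the Rab genes, Rab3a, which acts on synaptic vesicles, was higher in neuron regions by 0.81 (limma adjusted p 0.00126).

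The header of the deposited table names 14 captured areas that hold a region of each type, so that the types could also be set against each other within an area. The neuron region was the higher in all 14 areas for 96 of the genes tested (2.05%), and the supporting-cell region in all 14 for 8 (0.171%). Nefl, Calb2, Thy1, Snap25 and Slc17a7 belonged to the former, and Pmp22, Apod, Glul, Cryab, B2m and Cnp to the latter. These counts compare the scaled signal, on which regions at 1 read can differ. For B2m both regions of areas 1 and 6 were at 1 read. The scaled value was 0.780 in the neuron region and 1.56 in the supporting-cell region of each. Coch was higher in the supporting-cell region in 13 areas and equal in 1, Itgb8 in 13 areas, and Tubb3 in the neuron region in 12. Across all regions, 28 genes had every neuron region above every supporting-cell region (0.598%), and 1 gene had the reverse (0.0213%).

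**Figure D5:**
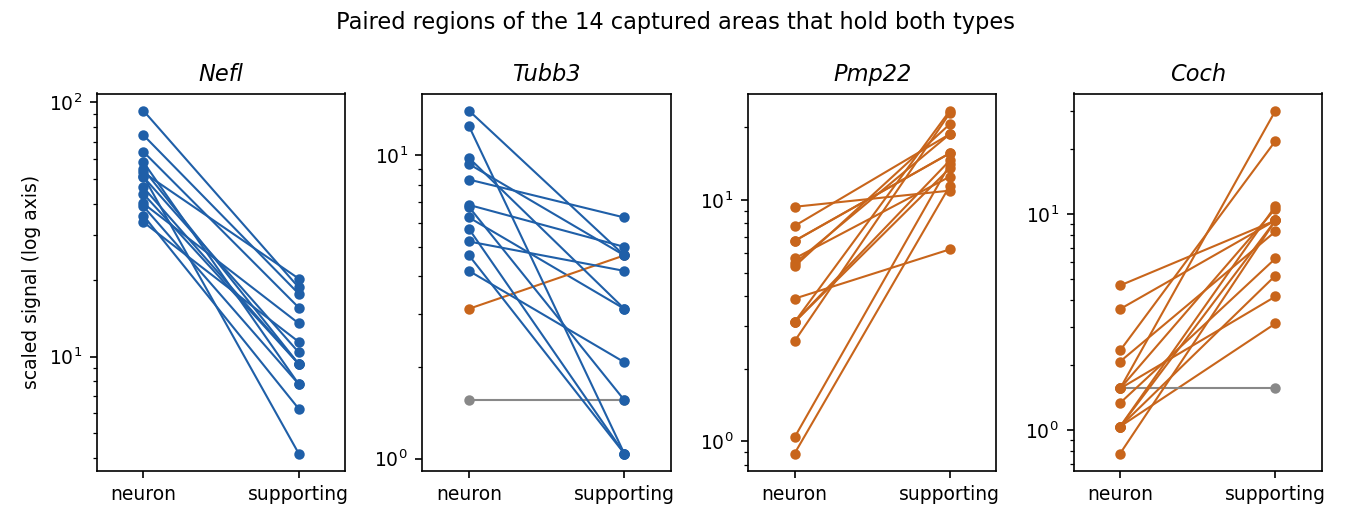
Scaled signal (log axis) of Nefl, Tubb3, Pmp22 and Coch in the neuron and the supporting-cell region of each of the 14 areas with both types, joined by a line. Blue lines fall from neuron to supporting, orange lines rise and grey lines are level. Nefl falls and Pmp22 rises in all 14 areas, Tubb3 falls in 12 and Coch rises in 13.

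Promoter sequence was looked at for the genes picked by size. RefSeq promoters on GRCm38.p6, the 250 bases before the start site, were at hand for 3773 of the 4686 genes tested and for 13 of the 18 picked genes reported here. The letters ACAAAG, a core of the sites bound by SOX factors, were searched on both strands (CTTTGT on the other). They occurred in 18.6% of all promoters in the table, in 15.4% of the genes tested, in 14.4% of 500 called higher in neuron regions and in 18.8% of 197 called higher in supporting-cell regions, olfactory receptor genes left out. Other letters, searched the same way and free to overlap one another, were TGACG, a core of cyclic AMP response elements (30.1% of genes tested, 38.8% of neuron-higher and 24.4% of supporting-higher), the GC box GGGCGG (58.5%, 68.8% and 59.4%) and TATAAA (11.3%, 10.4% and 12.7%). The median GC content of these promoters was 59.2%, 62.2% and 58.4% in the same order. Over all promoters in the table the shares were 19.8% for TGACG, 35.4% for GGGCGG and 14.3% for TATAAA. Among the picked genes ACAAAG was matched in 4 of 9 of the supporting side and in 3 of 4 of the neuron side. Stretches around the first match are shown for all 7, 5′ to 3′ on the gene's strand with the match in capitals, because the letters occur on both sides.
Apod, chr16:31314867-31314912, minus strand: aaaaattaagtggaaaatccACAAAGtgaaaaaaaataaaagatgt
B2m, chr2:122147550-122147595, plus strand: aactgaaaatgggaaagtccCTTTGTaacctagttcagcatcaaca
Apoe, chr7:19699217-19699262, minus strand: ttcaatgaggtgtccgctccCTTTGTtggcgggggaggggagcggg
Art3, chr5:92388071-92388116, plus strand: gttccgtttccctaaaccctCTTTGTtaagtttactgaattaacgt
Ank2, chr3:127499281-127499326, minus strand: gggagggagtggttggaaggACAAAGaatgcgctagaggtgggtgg
Stmn3, chr2:181314588-181314633, minus strand: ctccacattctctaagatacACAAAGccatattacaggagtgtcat
Ndrg4, chr8:95678065-95678110, plus strand: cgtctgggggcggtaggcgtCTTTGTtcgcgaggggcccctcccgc
A match describes these letters only and says nothing of binding.

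The same contrast was read in the noise-exposed regions, which the fit did not use. There the difference of group means had the mock direction for 614 of the 627 neuron-higher genes (97.9%, against 56.3% of all genes tested with that sign) and for 244 of the 302 supporting-higher genes (80.8%, against 43.7%). The 12 noise neuron regions were taken without replicate 6, whose values are equal for every gene, against 8 noise supporting-cell regions. With it the counts were 617 and 227. The median difference in noise was 0.61 for the neuron-higher genes, against 0.78 in mock, and -0.20 for the supporting-higher genes, against -0.58. Over all genes tested it was 0.05 in noise and -0.04 in mock. The called genes were picked by their mock values, so the mock and noise medians are not a like comparison. A change with noise was not tested. Thy1, Nefl and Calb2 had noise differences of 1.82, 1.21 and 1.36, and Apod, Coch and Pmp22 of -1.91, -1.17 and -1.12. Apoe and Art3 were at -0.36 and -0.44 in noise, against -1.28 and -1.27 in mock. Hsf1 had the other sign in noise, 0.15 against -0.59. These are descriptions over other regions of the same study, with no test of single genes.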

How the data were processed

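GeoMx regions of mouse cochlea were compared, 16 mock neuron against 14 mock supporting-cell regions, grouped by their titles. The deposited values are signal scaled by the authors to a common upper quartile, as the values show; the submitters' processing notes name DRAGEN, mm10 and GRCm38, and the scaling step is not given in the sources used here. Of the mock values, 99.99% were whole multiples of the region's lowest value (tolerance 0.01), from which reads were recovered, floored at 1. In addition, 6 missing entries were left missing. Genes with a mean of 1.84 or more (the 0.25 quantile) were tested with limma 3.58.1 (R 4.3.3) on log2(signal + 1), eBayes with trend and robust fitting, Benjamini-Hochberg adjustment and a threshold of 0.05, and the script was tested on simulated data. Permutation tests were two-sided (scipy, 100000 resamples). Alternatives included edgeR 4.0.16 and DESeq2 1.42.0 on recovered reads.

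Named were the 12 largest differences in each direction among called genes above the median mean, Nefl, Tubb3, Snap25, Sox2 and Gjb2 where listed, and tested members of 24 gene lists. Members and lists were chosen with earlier results of these data known. Several of these genes are not reported here. No pair by title number or area name correlated above 0.1, while regions of the same area correlated best in 7 of 14 pairs. The main fit was set without pairing. Regions are not tied to animals, so p-values measure spread between regions, part of which may be technical. The labels' extraction text describes a library kit used on total RNA, which is not how GeoMx probes are read.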

Additional observations from a re-analysis of the deposited data

How the results depend on the processing

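Of the genes tested, 627 were higher in neuron regions and 302 in supporting-cell regions. Neuron-higher calls numbered 988 with the negative probe subtracted, 217 with the olfactory receptor mean in the fit, 299 with reads thinned to 9599 per region, 400 in edgeR and 306 in DESeq2 on recovered reads. Supporting-higher calls numbered 94 with the filter at the 0.75 quantile, where 1562 genes were tested, 66 with the negative probe subtracted, 23 with the olfactory receptor mean, 90 with thinned reads and 147 with reads above the floor per total, an alternative chosen after seeing the data. They numbered 388 without the filter, 323 in edgeR and 210 in DESeq2. Apart from the fewer genes tested at the stricter filter, the cause was not tested. Thinning kept 291 and 79 of the original calls, and the covariate 206 and 20. The median over all genes tested, -0.04, became 0.24 with the negative probe subtracted, 0.10 with the covariate, -0.19 in edgeR and -0.22 in DESeq2. Leaving out each region in turn gave 585 to 649 and 260 to 314 calls. With the replicate block by title number there were 617 and 275 calls and with the block by captured area 633 and 282. Same-numbered regions correlated best with each other in 1 of 14 pairs (-0.029 to 0.064) and regions of the same area in 7 of 14 (-0.0066 to 0.064). Above 0.1 lay 0 of 14 pairs of either kind. The main fit used neither block, although regions of an area share it by the header. Of 198 genes examined under the alternatives without left-out regions, 115 lost their call under at least 1, most often with the covariate (105) or thinned reads (75). Tuba1b reversed, to -0.17 under quantile normalization. Among list medians under the alternatives, 73 values moved by more than the spread between regions and 250 did not. A supporting-cell region had a median of 12885 reads, at which 1 read is a large step for most genes.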

Other observations

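Genes with related functions were split between the region types; they were chosen after their values were seen. In glutamate handling, Slc38a1, a glutamine transporter that serves neurons, was at 6.24 to 18.7 (median 11.4) in neuron regions and 1.56 to 5.20 (median 2.60) in supporting-cell regions without overlap, whereas Glul, which makes glutamine in glia, was lower in the neuron region in all 14 areas.

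Several genes outside the lists also separated the region types without overlap and were chosen after their values were seen. Fth1, the ferritin heavy chain that stores iron, was at 173 to 393 (median 235) in neuron regions and 57.7 to 104 (median 80.3) in supporting-cell regions. Its difference of 1.60 was 0.07 under quantile normalization, where it was not called (limma adjusted p 0.729). Sparcl1, a secreted matrix-associated glycoprotein often used as a glial gene in the brain, was at 76.9 to 115 (median 94.3) and 15.6 to 62.4 (median 31.2), so it was higher in the neuron regions here (1.64, limma adjusted p 4.78e-30). The imprinted Snrpn, which encodes a splicing protein of neurons, was at 42.1 to 92.0 (median 54.1) and 7.28 to 32.7 (median 15.4), and Gnas, the stimulatory G protein alpha subunit, at 46.8 to 104 (median 65.5) and 15.0 to 37.4 (median 22.9). Atp2b2, a calcium pump of the plasma membrane, was at 12.5 to 31.2 (median 19.4) and 3.12 to 7.80 (median 4.68).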
